A study of Homo sapiens with 6 samples.

Results

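The transmembrane BAX inhibitor motif (TMBIM) family was examined through 5 genes, TMBIM1, TMBIM4, TMBIM6, FAIM2 and GRINA, among 18404 genes with a name on the arrays. Each of the 5 was measured by 1 probe set, and all 5 were among the 13711 genes bright enough to be tested. The family was chosen by the measured change of TMBIM1, which is among the highest rises with SALL4 knockdown, so that change is described here and was not tested. The other 4 genes were taken because of the family they belong to.

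The cells were SNU-398, an established human hepatocellular carcinoma line grown in RPMI medium with fetal bovine serum, and all groups carried an shRNA. In 3 cultures the shRNA was a scrambled control, and in 3 it was directed against SALL4, a transcription factor active in embryonic stem cells and in fetal liver. Total RNA of each culture went onto 1 Affymetrix array. Their titles describe biological replicates but do not say how the cultures were separated, so p-values measure the spread between these arrays. The labels name no second SALL4 hairpin and no rescue, and other effects of the hairpin cannot be told apart from lower SALL4. The labels name no vector, promoter or time after treatment.

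TMBIM proteins span membranes several times and share a conserved channel-like fold. TMBIM6, also called BAX inhibitor 1, sits in the endoplasmic reticulum, where it lets calcium leak from the store, restrains the stress sensor IRE1 and protects cells from BAX-driven death. The relatives differ in their membranes: TMBIM1 is found on endosomes and lysosomes, TMBIM4 and GRINA at the Golgi apparatus and endoplasmic reticulum, and FAIM2, best known from neurons, acts against death signalled by the Fas receptor. TMBIM1 too has been linked to resistance to Fas ligand.

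Because the experiment lowers a DNA-binding factor, the stretch just before the start of the gene that differed, TMBIM1, is shown beside that of TMBIM6, which did not pass the test. These are the 150 bases before the RefSeq start (GRCh38.p14), at chr2:218292504-218292653 on the minus strand for TMBIM1 and at chr12:49741407-49741556 on the plus strand for TMBIM6, written 5′ to 3′ with motif matches in capitals.
TMBIM1: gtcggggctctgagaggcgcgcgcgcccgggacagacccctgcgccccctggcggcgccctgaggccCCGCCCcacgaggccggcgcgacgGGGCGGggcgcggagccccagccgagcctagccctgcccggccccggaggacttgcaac
TMBIM6: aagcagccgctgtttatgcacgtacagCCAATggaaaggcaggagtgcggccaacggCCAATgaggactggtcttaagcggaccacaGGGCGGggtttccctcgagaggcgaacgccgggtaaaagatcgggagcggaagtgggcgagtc
Both strands were searched for 5 motifs, and no 2 matches overlapped. The GC box GGGCGG, which SP1 binds, occurred 2 times in the TMBIM1 window, with first bases 83 and 59 bases before the start, and 1 time in the TMBIM6 window, and 36.8% of 35116 windows of the same length hold it. The CCAAT box occurred 2 times in the TMBIM6 window, 123 and 93 bases before the start, and 0 times in that of TMBIM1, against 23.5% of all windows. The TATA box TATAAA (6.71% of windows), the E-box CACGTG that lysosomal gene regulators bind (4.57%) and the AT-rich word ATATT, of the kind bound by SALL4 (12.7%), were in neither window. The TMBIM1 window was 82.0% G or C, the TMBIM6 window 60.7% and the median window 60.0%. Such matches describe letters and show no binding.

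SALL4, the targeted gene, had intensities of 284, 264 and 335 on the scrambled arrays and 121, 119 and 117 on the SALL4 shRNA arrays. On the log2 scale it fell by 1.30 ± 0.18 (SE; limma adjusted p = 0.0112). It passed in each of the 6 fits without 1 array, but not in the fit of all genes with no brightness filter (adjusted p = 0.0946), of all probe sets (0.0535) or without scrambled replicate 3 and SALL4 shRNA replicate 2 together (0.0724). The array medians lay between 47.85 and 51.69, and the deposited values never fall below 10. The second principal component, 19.8% of the variance, set scrambled replicate 3 (19.3) and SALL4 shRNA replicate 2 (23.4) apart from the others (-16.9 to -1.77). Of 13 measured hepatocyte and hepatoma markers, 7 were too dim to be tested, among them ALB (11.2 and 12.1 in the scrambled and SALL4 shRNA means) and AFP (15.0 and 13.5), while GPC3 was at 155 and 144. The summed intensity of 5 blood markers was 79.2 to 88.9 on the scrambled arrays and 84.3 to 93.6 on the SALL4 shRNA arrays, with PTPRC and LYZ at the floor on all 6. Sums for 4 endothelial markers were 84.9 to 92.6 and 80.5 to 106, and for 6 fibroblast markers 1286 to 1444 and 1006 to 1368. Of these 6, DCN fell by 1.25 on the log2 scale (limma adjusted p = 0.0217, where 1.6% of all tested genes passed). The others did not pass, with COL3A1 at -0.54, LUM at -0.084, PDGFRB at 0.32, COL1A1 at 0.37 and COL1A2 at 0.50. Their part in the results was not tested.

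TMBIM1 was higher in every culture with the SALL4 shRNA than in any control culture. Its intensities were 335, 551 and 272 on scrambled arrays 1, 2 and 3, and 1112, 1115 and 1256 on SALL4 shRNA arrays 1, 2 and 3. The groups did not overlap, and the lowest knockdown array was 2.02 times the highest control array. The means were 386 ± 146 and 1161 ± 82.6 (SD, n = 3 each). The difference on the log2 scale was 1.65 ± 0.25 (SE), or 3.14-fold. This was the fourth largest rise among 13711 genes (rank 4), the value on which the family was selected. In bulk RNA, more TMBIM1 RNA per cell and more cells that express it cannot be told apart.

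The control arrays were the uneven ones for this gene. Scrambled replicate 2 was 2.03 times scrambled replicate 3, whereas the SALL4 shRNA arrays spanned 1.13-fold. On the log2 scale the SD was 0.52 among controls and 0.10 among knockdown arrays. Without scrambled replicate 2 the change was 1.94, and without scrambled replicate 3 it was 1.43.

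**Figure D1:**
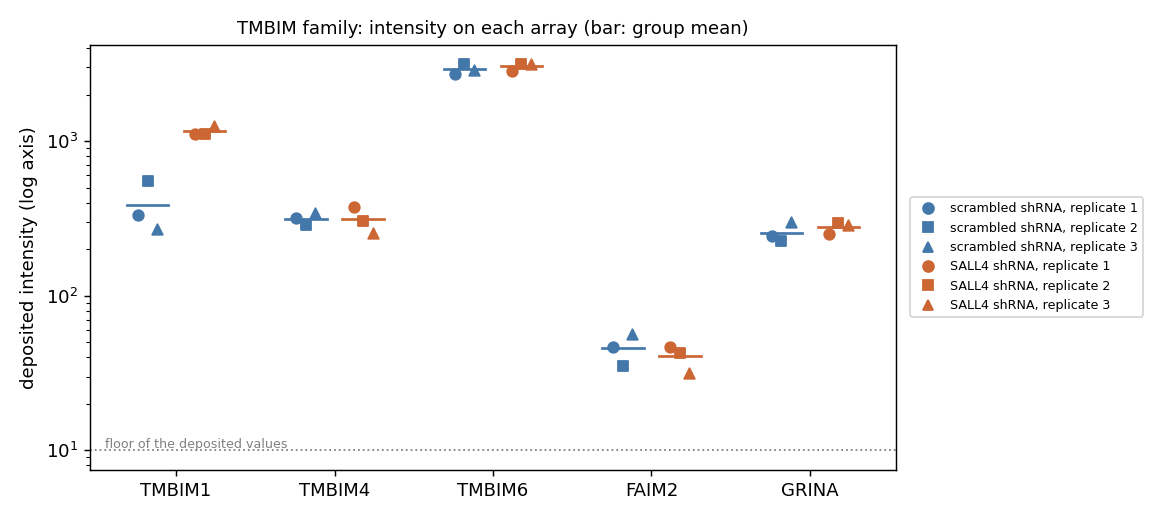
Deposited intensity (log axis) of the 5 TMBIM family genes on each of the 6 arrays; blue symbols are scrambled and orange symbols SALL4 shRNA cultures, bars are group means (n = 3 each) and the dotted line is the floor of 10. TMBIM1 lies between 272 and 551 in the controls and between 1112 and 1256 with the SALL4 shRNA, while the groups of the other 4 genes overlap.

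None of the other 4 members passed the test, and in each the groups overlapped. In the fit 1.6% of all tested genes passed (220 of 13711), and the groups did not overlap in 22.4%. With limma 0 of these 4 members had an unadjusted p under 0.05, against 16.9% of all tested genes (2320 of 13711).

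TMBIM6, the endoplasmic reticulum member, was at 2710, 3150 and 2900 in the controls and at 2865, 3137 and 3161 with the SALL4 shRNA. Scrambled replicate 2 was above 2 of the 3 knockdown arrays. The log2 change was 0.066 ± 0.18 (SE), with a 95% interval from -0.32 to 0.45, or 0.80-fold to 1.37-fold (limma adjusted p = 0.891; exact two-sided permutation p = 0.6). After quantile normalization its sign turned, to -0.012. An interval that wide leaves small changes in either direction undetectable at 3 arrays a group.

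TMBIM4, a Golgi member that also limits death of stressed cells, was at 320, 286 and 341 in the controls and at 377, 304 and 255 with the SALL4 shRNA. The knockdown arrays held both the highest and the lowest value. The log2 change was -0.030 ± 0.20 (SE), with a 95% interval from -0.47 to 0.41 (limma adjusted p = 0.959; exact permutation p = 0.9). Its sign was not stable: it turned to 0.016 when each array was centred on its median, to 0.027 without scrambled replicate 3 and to 0.107 without SALL4 shRNA replicate 3.

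GRINA, a glutamate receptor associated member of the Golgi and endoplasmic reticulum, was at 242, 226 and 301 in the controls and at 249, 295 and 287 with the SALL4 shRNA. Scrambled replicate 3 was the highest of the 6 arrays. The log2 change was 0.12 ± 0.19 (SE), with a 95% interval from -0.30 to 0.53 (limma adjusted p = 0.808; exact permutation p = 0.5).

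FAIM2, the neuronal Fas inhibitor, was dim, at 46.6, 35.1 and 56.4 in the controls and at 47.0, 42.8 and 31.8 with the SALL4 shRNA. The highest value was in a control and the lowest in a knockdown array, with the other 4 between them. The log2 change was -0.18 ± 0.23 (SE), with a 95% interval from -0.68 to 0.32 (limma adjusted p = 0.749, exact permutation p = 0.6). No array was at the floor of 10 for FAIM2. Values this dim may still understate changes, which was not tested. Without scrambled replicate 2 its change was -0.36 and without SALL4 shRNA replicate 3 it was -0.011. Of 6 measured neural markers, 0 of the 5 in the fit passed limma, and their summed intensity was 574 to 779 in the controls and 535.5 to 642 with the SALL4 shRNA.

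Measured against all genes, 99.9% had a smaller absolute change than TMBIM1. For FAIM2, GRINA, TMBIM6 and TMBIM4 that share was 41.7%, 29.0%, 16.5% and 7.53%.

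**Figure D2:**
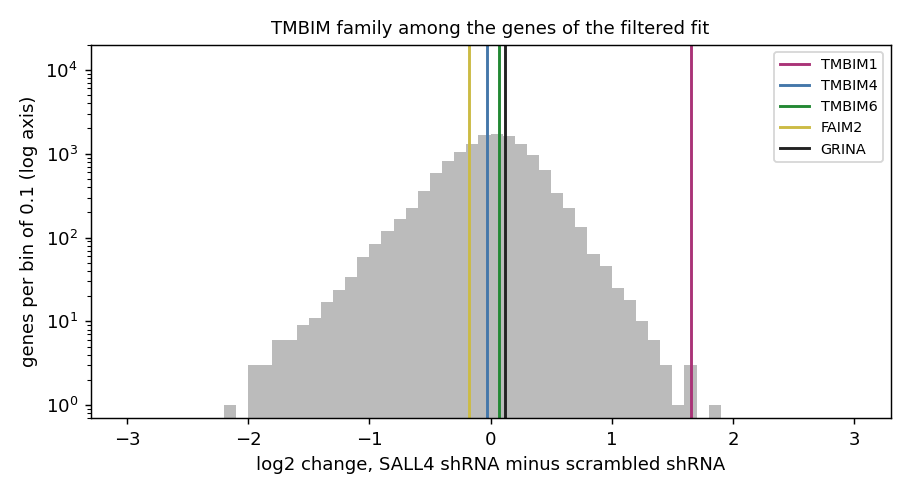
Number of genes (log axis) per bin of 0.1 in log2 change, SALL4 shRNA minus scrambled shRNA, for the 13711 tested genes, with a coloured line at each family member. TMBIM1 lies at 1.65 in the right tail, and the other 4 lines lie between -0.18 and 0.12.

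GHITM, the mitochondrial relative of the family, was not among the chosen members. It was at 318, 421 and 363 in the controls and at 446, 564 and 433 with the SALL4 shRNA, and the groups did not overlap by a narrow margin. Its log2 change was 0.39 ± 0.20 (SE), with a 95% interval from -0.042 to 0.82 (limma adjusted p = 0.347). FAIM, a cytosolic Fas inhibitor that shares FAIM2's name and not its fold, was at 302, 233 and 186 in the controls and at 242, 244 and 226 with the SALL4 shRNA (0.0085 ± 0.21, SE; limma adjusted p = 0.991).

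The BCL2 proteins, whose pore-forming member BAX gave the family its name, were described from lists fixed for this report. Of 11 pro-apoptotic BCL2 genes in the fit 0 passed limma, 2 had an unadjusted p under 0.05, near the 16.9% of all genes, and the median log2 change was 0.00024, beside 0.015 for all genes. BAX itself was at 120, 121 and 157 in the controls and at 108, 173 and 115 with the SALL4 shRNA (-0.027 ± 0.22, SE). PMAIP1, the BH3-only protein NOXA, had the lowest p, at 0.58 ± 0.19, followed by BIK (-0.47 ± 0.21) and BCL2L11, the BH3-only protein BIM (-0.34 ± 0.19). Of the 4 anti-apoptotic genes in the fit 0 passed limma and 0 had an unadjusted p under 0.05. BCL2L10 was at -0.55 ± 0.26, BCL2L1, which encodes BCL-XL, at -0.15 ± 0.19 and MCL1 at 0.040 ± 0.22.

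A list of the death receptor and caspase pathway holds genes of Fas signalling, which TMBIM1 and FAIM2 are known to oppose, with TRAIL and TNF receptor genes and the mitochondrial caspase route. Of its 15 genes in the fit 0 passed limma and 4 had an unadjusted p under 0.05, beside 16.9% of all genes, with a median log2 change of 0.044. The receptor gene FAS was at 152, 123 and 146 in the controls and at 182, 123 and 116 with the SALL4 shRNA (-0.023 ± 0.22, SE). Its adaptor FADD was at 0.044 ± 0.19 and the initiator caspase CASP8 at 0.27 ± 0.20. The lowest p values belonged to the executioner caspase CASP6 (0.92 ± 0.26; limma adjusted p = 0.092), the death receptor TNFRSF10A (0.61 ± 0.20) and the caspase inhibitor XIAP (-0.54 ± 0.21).

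In ER calcium handling, the process TMBIM6 and GRINA take part in, 1 of 17 genes fell, 0 rose and 16 did not pass. The median log2 change was 0.024, and 5 of the 17 had an unadjusted limma p under 0.05, beside 16.9% of all genes. Among all genes 1.06% fell. TMCO1, a calcium-activated channel that empties overfilled endoplasmic reticulum, fell from 546, 678 and 546 in the controls to 271, 219 and 228 with the SALL4 shRNA. The groups did not overlap, and the log2 change was -1.30 ± 0.19 (SE; limma adjusted p = 0.0112). It passed in each of the 6 fits without 1 array, but not with no brightness filter (adjusted p = 0.0946), among all probe sets (0.0535) or without scrambled replicate 3 and SALL4 shRNA replicate 2 together (0.0724). The pump gene ATP2A2 (SERCA2) was at 2103, 2279 and 2125 and at 1374, 1434 and 1057, a log2 change of -0.76 ± 0.19 that did not pass (limma adjusted p = 0.0668), the plasma membrane channel gene ORAI2 was at 0.72 ± 0.19 and the calcium-storing chaperone gene CALR at 0.48 ± 0.20. Of the IP3 receptor genes, ITPR1 was at -0.40 ± 0.21, ITPR2 at -0.47 ± 0.21 and ITPR3 at -0.14 ± 0.21, and none of them passed.

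In the unfolded protein response, which TMBIM6 restrains at IRE1, 0 of 20 genes passed limma, 6 had an unadjusted p under 0.05, beside 16.9% of all genes, and 1 passed with trend and robust settings, which called 3.65% of all genes. The median log2 change was 0.12. ERN1, which encodes IRE1, was at 68.9, 80.6 and 60.9 in the controls and at 73.3, 89.1 and 61.6 with the SALL4 shRNA (0.083 ± 0.21, SE), and its target XBP1 was at -0.41 ± 0.20. The phosphatase subunit PPP1R15A (0.67 ± 0.19), the sensor ATF6 (0.64 ± 0.19) and the kinase EIF2AK3, also called PERK (0.73 ± 0.23), had the lowest p values, with limma adjusted p values of 0.0988, 0.108 and 0.123.

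In a list of late endosome, lysosome and ESCRT genes, 3 of 24 rose, 0 fell and 21 did not pass. The list takes in the compartment of TMBIM1 but is wider, with ESCRT genes, RAB5A and RAB11A. Its median log2 change was 0.18, and 9 of the 24 had an unadjusted limma p under 0.05, beside 16.9% of all genes. Among all genes 0.547% rose. NPC2 was known to be among the highest rises when the list was written, so these counts are not independent of these data. NPC2, the lumenal cholesterol carrier, rose from 748, 625 and 623 in the controls to 1961, 1840 and 1495 with the SALL4 shRNA, a log2 change of 1.40 ± 0.19 (SE; limma adjusted p = 0.0112). CD63, a tetraspanin of late endosomes and exosomes, rose from 1429, 1449 and 1479 to 2977, 2970 and 2501 (0.95 ± 0.18; limma adjusted p = 0.0275). CTSL, the protease cathepsin L, rose from 878, 720 and 696.5 to 1511, 1353 and 1287 (0.86 ± 0.19; limma adjusted p = 0.0445). For these 3 genes, as for TMBIM1, every knockdown array was above every control array. Groups that did not overlap, in either direction, were seen in 11 of the 24 genes and in 22.4% of all tested genes. That trait was not particular to this list, as 11 of 20 unfolded protein response genes showed it. So did 5 of 17 ER calcium genes, 5 of 15 death receptor and caspase genes and 4 of 11 pro-apoptotic genes. For the anti-apoptotic genes the count was 0 of 4, and for the neighbouring genes 5 of 26.

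How firmly these 3 passed differed. NPC2 passed in each of the 6 fits without 1 array, CD63 only in that without SALL4 shRNA replicate 3 (adjusted p from 0.0458 to 0.0907 over the 6), and CTSL in 0 of them (0.0817 to 0.136). Without scrambled replicate 3 and SALL4 shRNA replicate 2 together, among all probe sets and in the fit with no brightness filter, 0 of the 24 passed limma. The lysosomal membrane genes LAMP2 (0.66 ± 0.18, SE) and LAMP1 (0.34 ± 0.20) and the early endosome gene RAB5A (0.67 ± 0.19) did not pass. The ESCRT-I subunit VPS37A, at 537, 377 and 444 in the controls and 262, 164 and 259 with the SALL4 shRNA, had a log2 change of -1.005 ± 0.23 and a limma adjusted p of 0.0529.

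**Figure D3:**
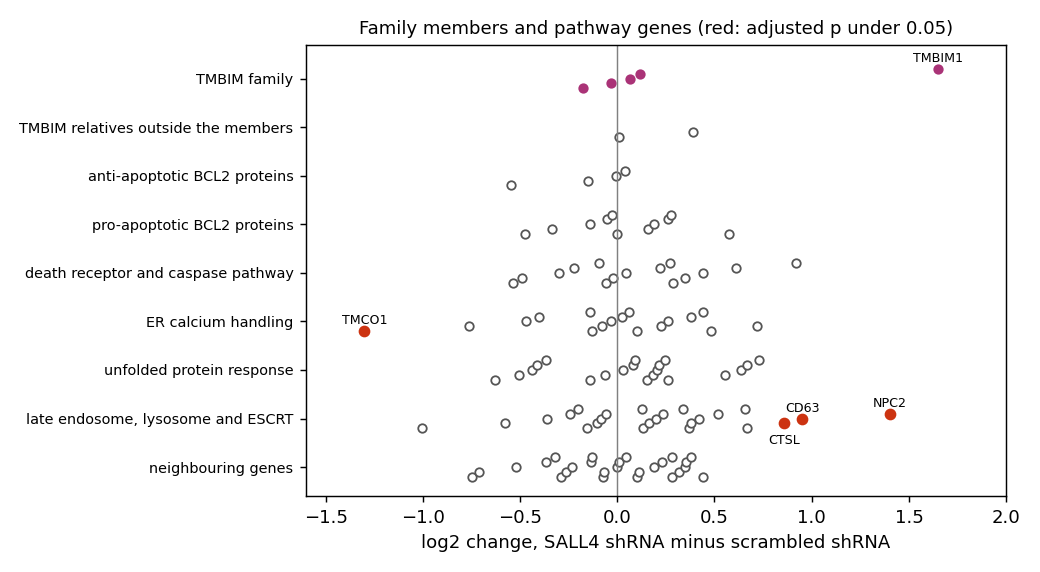
Log2 change, SALL4 shRNA minus scrambled shRNA, of each family member (purple, top row, with TMBIM1 described and not tested) and of each tested gene of the 8 lists; red points have a limma adjusted p under 0.05 and open points do not, and the vertical offset within a row only separates points. The red points are TMCO1 at -1.30 and CTSL, CD63 and NPC2 at 0.86, 0.95 and 1.40.

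**Figure D4:**
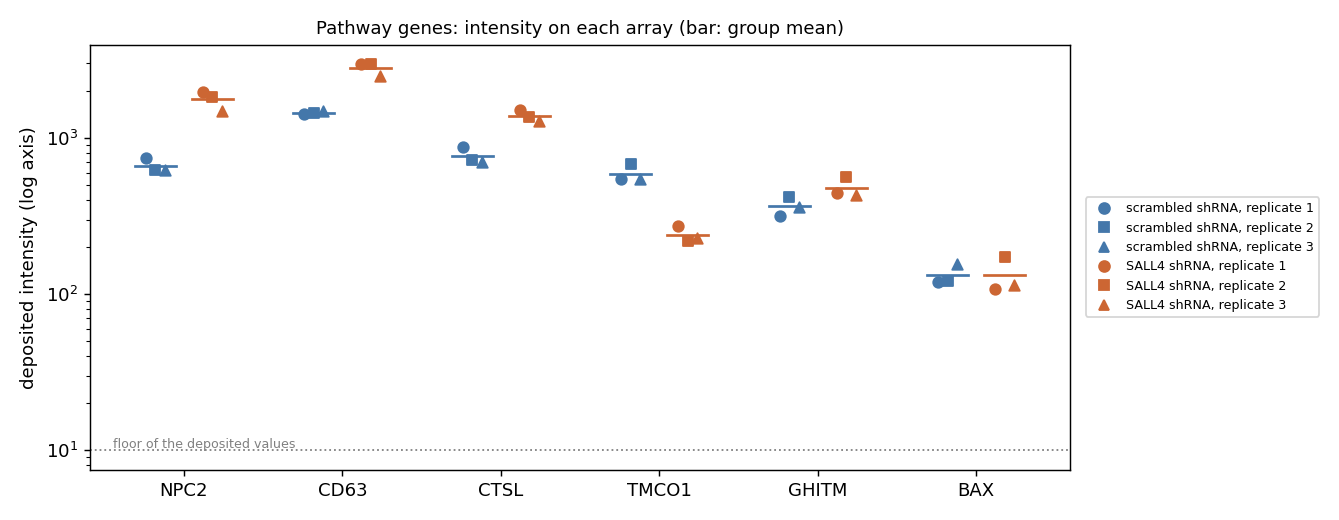
Deposited intensity (log axis) of NPC2, CD63, CTSL, TMCO1, GHITM and BAX on each of the 6 arrays, with symbols, bars and floor drawn as for the family members. NPC2 lies between 623 and 748 in the controls and between 1495 and 1961 with the SALL4 shRNA, while the BAX groups overlap.

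Genes beside the members on the chromosome were listed by position in the RefSeq gene table, as the 3 nearest measured coding genes on each side and any that overlap. Of the 26 such genes in the fit, members left out, 0 passed limma and 3 had an unadjusted p under 0.05, below the 16.9% of all genes, with a median log2 change of 0.0054. PNKD, a gene on chromosome 2 whose span overlaps TMBIM1, was at 56.7, 60.3 and 68.8 in the controls and at 59.8, 75.7 and 64.2 with the SALL4 shRNA (0.10 ± 0.19, SE; limma adjusted p = 0.834). On one side of TMBIM1, AAMP was at 0.44 ± 0.25, GPBAR1 at 0.28 ± 0.19 and the actin nucleator subunit gene ARPC2 at 0.35 ± 0.21. On the other side CATIP was at 0.28 ± 0.22 and CTDSP1 at 0.19 ± 0.22, while SLC11A1 was too dim for the fit (21.7 and 24.7).

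TMBIM6 and FAIM2 lie close together on chromosome 12, with NCKAP5L (0.012 ± 0.25, SE) and BCDIN3D (-0.75 ± 0.25; limma adjusted p = 0.146) between them. On the far side of TMBIM6, FMNL3 was at 0.046, PRPF40B at -0.32 and FAM186B at -0.26, and beyond FAIM2 the aquaporin genes AQP2, AQP5 and AQP6 were at -0.00079, -0.074 and -0.13. Around TMBIM4, on the same chromosome, the signalling inhibitor IRAK3 was at -0.71 ± 0.20 (limma adjusted p = 0.0971), HELB at -0.52, LLPH at -0.14, MSRB3 at -0.23 and LEMD3 at 0.35, and GRIP1 was too dim. Around GRINA, on chromosome 8, the overlapping PARP10 was at -0.29, PLEC at 0.11, EPPK1 at -0.067, NRBP2 at 0.23, SPATC1 at -0.37, OPLAH at 0.38 and EXOSC4 at 0.32.

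The genes whose log2 values followed each member most closely over the 6 arrays were taken by Pearson's r among the genes in the fit. These values describe 6 points that fall into 2 groups, so a gene that differs between the groups in step with a member scores high. For TMBIM1 they were LINS1 (r = 0.996), the RNA helicase gene DDX52 (0.995), the clathrin adaptor gene AP2B1 (0.987), MTMR11 (0.987) and the dynein light chain gene DYNLL1 (0.987). All 5 were higher with the SALL4 shRNA, by 0.91, 0.23, 0.53, 0.70 and 0.56 on the log2 scale, each less than TMBIM1. LINS1 was at 87.5, 113 and 76.9 in the controls and at 176, 170.1 and 170.5 with the SALL4 shRNA. Scrambled replicate 2 was its highest control, as for TMBIM1. LINS1 was picked for its likeness to TMBIM1 on these same arrays, so the shared rise and control order are no separate result.

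For the other members the closest genes differed little between the groups, like the members themselves. For TMBIM6 they were RELA (0.975), RETREG3 (0.972) and FBP1 (0.971), for TMBIM4 SLC19A2 (0.991), CD79A (0.981) and WDFY2 (0.980), for FAIM2 POLR2M (0.997), ASIC3 (0.990) and NEDD4L (0.989), and for GRINA LINC02897 (0.998), ZNF710 (0.990) and IGFBP1 (0.985). Their log2 changes lay between -0.21 (ASIC3) and 0.31 (IGFBP1).

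**Figure D5:**
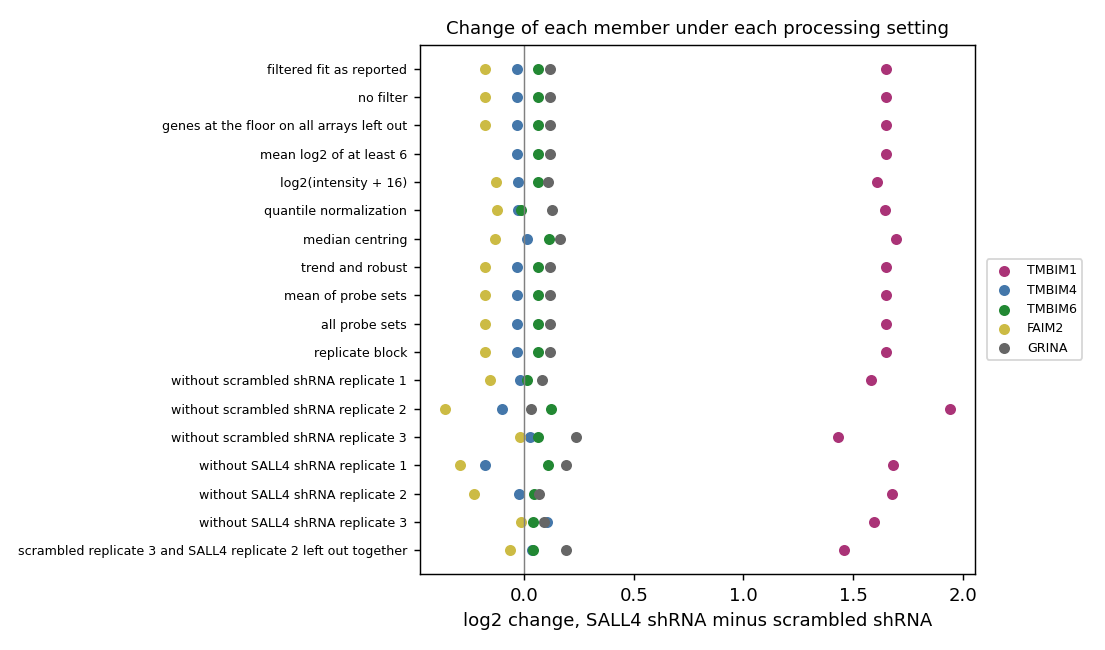
Log2 change, SALL4 shRNA minus scrambled shRNA, of each family member (1 colour a gene) in the reported fit and under each of 17 other processing settings; FAIM2 has no point where the brightness filter was stricter. TMBIM1 stays between 1.43 and 1.94, and the other 4 genes between -0.36 and 0.24.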

How the data were processed

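RMA is named in the submitters' processing notes, with no version, build or later steps given in the sources used here. The deposited intensities are linear, 1 value for each of 32319 probe sets, with a floor of 10 that holds 15.5% to 16.9% of the values of an array. The platform annotation pairs 19158 probe sets with 1 gene, and 19128 of these took the RefSeq symbol of their gene ID, changed or not. Another 1388 pair with several genes and 11773 are not listed, and both kinds were left out. Each gene was represented by its probe set with the highest mean. Log2 intensities of 13711 genes, with a mean log2 of at least 5 in 1 or both groups, were fitted with limma 3.58.1 in R 4.3.3 (2 groups of 3, moderated, two-sided, Benjamini-Hochberg over all genes in the fit, threshold 0.05). The script was tested on simulated arrays. Means are of intensities with SD; SE and 95% intervals are from the fit, and 3 arrays a group limit the precision. The smallest exact permutation p they allow is 0.1. The members, lists, filter and tests were chosen with earlier results of these data known. Named are the members, SALL4, list genes that passed and up to 3 further genes a list with the lowest p. Neighbours and the genes most like a member are named too. BAX, FAS, FADD, CASP8, ERN1, XBP1, the IP3 receptor genes and LAMP1 were added for their roles after values were seen. The alternatives tried were other filters, a pseudocount of 16, quantile and median scaling, trend and robust variance, other probe set rules, a replicate block and fits without arrays. Promoters come from a RefSeq table, which held no entry for TMBIM4 or FAIM2. Members on chromosome 8, here GRINA, were left out of the search, so those of TMBIM1 and TMBIM6 were used.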

Additional observations from a re-analysis of the deposited data

How the results depend on the processing

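TMBIM1 had log2 changes from 1.43 to 1.94 over the 17 alternatives. With 1 probe set, its change stays at 1.65 under other filters, variance settings, probe set rules or the replicate block. Its groups do not overlap, so leaving out arrays could not turn its sign. Its kept direction therefore adds no support to the change for which the family was picked. FAIM2 (-0.36 to -0.011, 16 alternatives) and GRINA (0.033 to 0.24) kept their directions and never passed limma. TMBIM6 turned to -0.012 after quantile normalization. TMBIM4 turned to 0.016 with median centring, to 0.036 without scrambled replicate 3 and SALL4 replicate 2 together, and ranged from -0.18 to 0.11 over the fits without 1 array. Calls over all genes varied widely. Against 220 in the reported fit, limma called 0 of 18404 with no filter (2864 at an unadjusted p under 0.05), 40 without genes at the floor on all arrays, 363 with a mean log2 of at least 6, 445 with a pseudocount of 16, 500 with trend and robust settings, 10 among all probe sets, 15 without those 2 arrays and 39 to 103 without 1 array. The 3 calls of the late endosome, lysosome and ESCRT list became 0 with no filter, among all probe sets and without the 2 arrays. They became 1 without genes at the floor, 1 to 2 without 1 array, 5 with the pseudocount and 6 with trend and robust settings. The 1 ER calcium call became 0 in the first 3 of these settings and 2 with the stricter filter, the pseudocount or trend and robust settings, which also called 1 unfolded protein response gene. The cause of these differences was not tested. As a paired check, the replicate block left 41 genes and 1 lysosomal call. Deviations of same-numbered arrays from their group means correlated at 0.003, -0.083 and -0.039. The labels do not say whether such arrays shared more than a number. Deviations from means of 3 arrays cancel within a group, so these correlations cannot settle it. With 3 arrays a group and a floor at 10, small changes and those of dim genes such as FAIM2 may stay below detection.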
